A study of Mus musculus with 30 samples.

Results

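Valsartan blocks the type 1 angiotensin receptor, and its addition to an angiotensin II infusion was examined here in the abdominal aorta of mice. The comparison takes the 5 libraries labelled AngII+VAL and the 5 labelled AngII, which is 10 of the 30 libraries of the series, and describes them across genes. The AngII+VAL mice received angiotensin II at 500 ng/kg/min and valsartan at 10.4 mg/kg/day, and the AngII mice received angiotensin II alone at the same dose, each for 28 days. All mice were wild-type C57BL/6 animals, and total RNA was sequenced after removal of ribosomal RNA. The labels give no sex, age, batch or pairing, and do not say how fat, nerve or neighbouring organs were trimmed from the vessel. They list each library as its own sample without naming the animal, so the p-values measure the spread between these samples. Values are FPKM, read fragments per kilobase of transcript and per read depth, summed over the annotated transcripts that the deposited lists of both groups hold. Fold changes are AngII+VAL over AngII on the log2(FPKM + 1) scale, which understates the change of low genes, and a gene passed where its limma p, adjusted over 12094 tested genes, was under 0.05.

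Angiotensin II acts on the vessel wall mainly through the type 1 receptor, a G protein-coupled receptor on smooth muscle cells that drives contraction, growth and matrix production. In the adrenal gland the same receptor drives aldosterone release, and in the kidney it lowers renin release. Mice carry a pair of genes for this receptor, Agtr1a and Agtr1b, and valsartan occupies the protein without removing it. The other treatments of the series are plant compounds, and valsartan is a drug in clinical use against hypertension.

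Markers of the vessel were present in all 10 libraries. Acta2, smooth muscle actin, stood at 3515 to 5717 FPKM in AngII+VAL and 3312 to 4331 FPKM in AngII, and Cdh5, the cadherin of endothelial junctions, at 36.4 to 41.2 FPKM in AngII+VAL and 34 to 51.8 FPKM in AngII. The tissue also held perivascular fat, with Ucp1, the uncoupling protein of brown adipocytes, at 785 to 1982 FPKM in AngII+VAL and 275 to 1917 FPKM in AngII. Cyp11b1 and Cyp11a1 of the adrenal cortex were not among the summed genes, and Star was at 0.822 to 0.921 FPKM in AngII+VAL and 0.872 to 2.71 FPKM in AngII. Several libraries stood apart in cell type markers. The sympathetic neuron score, the mean log2(FPKM + 1) of 23 genes, was 0.48, 0.47, 1.30, 3.97 and 0.72 in the AngII+VAL libraries, against 5.15, 0.63, 0.82, 3.58 and 5.54 in the AngII libraries. AngII+VAL replicate 4 and AngII replicates 1, 4 and 5 were therefore the 4 libraries with a score above 2. The skeletal muscle score, over 19 genes, was 7.0, 6.07, 4.67, 5.84 and 5.55 in the AngII+VAL libraries, against 1.75, 2.23, 2.19, 0.84 and 0.72 in the AngII libraries. Mitochondrially encoded genes took 15.7% to 26.6% of the FPKM of a library in AngII+VAL and 11.98% to 23.7% in AngII, and the median FPKM of the tested genes was 5.86 to 6.89 in AngII+VAL and 6.56 to 7.90 in AngII.

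Of the 12094 tested genes, 24 passed the threshold (0.198%). They were 21 genes higher in AngII+VAL (0.174%) and 3 lower (0.0248%). Of the 21 higher genes 20 are known genes of striated muscle, and the other, Cltrn, is best known from the kidney. The median log2 fold change of all tested genes was -0.12, and 31.4% of them had a value above 0. Scaling the libraries to a common median brought that median to 0.0012 and quantile normalization to -0.0055, so small changes are read against this shift. An unadjusted p under 0.05 was found for 1504 genes (12.4%), 333 higher (2.75%) and 1171 lower (9.68%). The AngII+VAL and AngII ranges did not overlap for 77 genes higher in AngII+VAL (0.637%) and 289 lower (2.39%). That split was 144 higher and 135 lower after median scaling, and 130 higher and 136 lower after quantile normalization. Without AngII replicate 2 the number of genes passing was 81, of which 66 were higher, and leaving out any other library in turn gave 18 to 26. All 30 libraries were also fitted together, over transcripts in all 6 lists, so that the gene sums, the filter and the spread differed. There 0 genes passed with limma (lowest adjusted p = 0.115), against 1429 at an unadjusted p under 0.05.

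**Figure D1:**
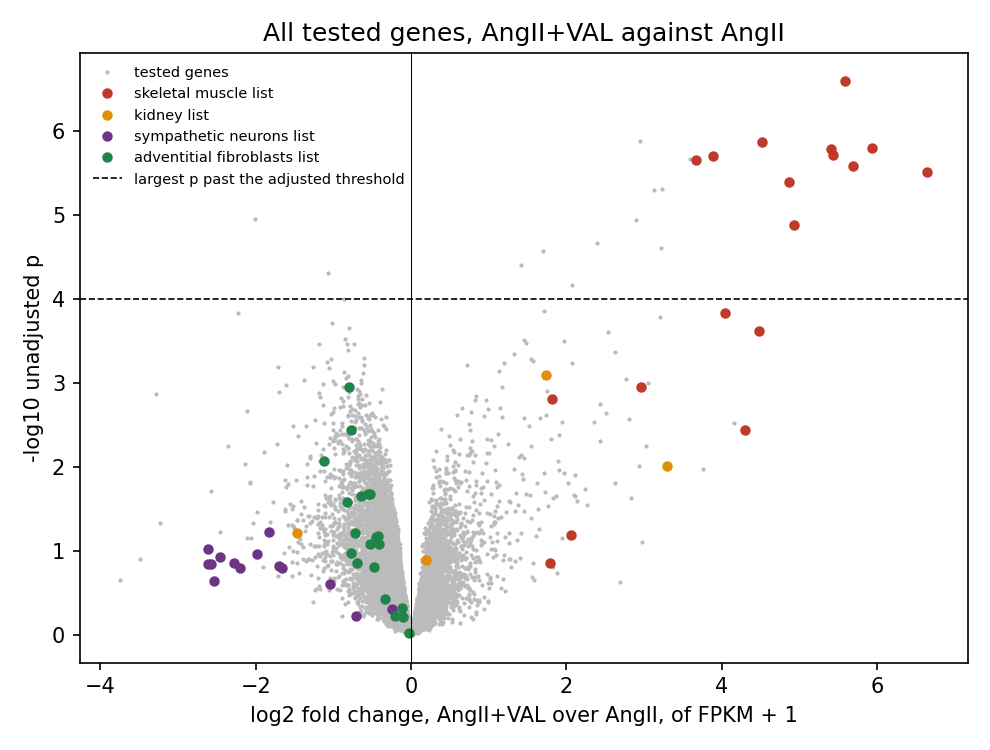
Each point is 1 of the 12094 tested genes, with the log2 fold change of FPKM + 1, AngII+VAL over AngII, on the horizontal axis and −log10 of the unadjusted limma p on the vertical axis; coloured points are members of 4 gene lists and the dashed line marks the largest p that passed the adjusted threshold. Skeletal muscle genes fill the upper right, 11 of them above the line, while sympathetic neuron genes lie far to the left at low −log10 p.

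The genes higher with valsartan were mostly genes of fast skeletal muscle. Skeletal muscle contracts by sliding actin and myosin filaments, which calcium released from the sarcoplasmic reticulum sets in motion through troponin, and its fast fibres use their own isoforms of each part. Acta1, the skeletal muscle actin (chr8:123891769-123894751, minus strand), had 1925, 1096, 318, 1043 and 608 FPKM in the AngII+VAL libraries, against 19.3, 3.73, 31.4, 2.01 and 3.58 FPKM in the AngII libraries. Every AngII+VAL library exceeded every AngII library, and the log2 fold change was 6.64 (adjusted p = 0.00332, SE 0.72). Its ratio of mean FPKM was 83.1. Atp2a1, the calcium pump of fast fibres (chr7:126445858-126463108, minus strand), had 481, 299, 75.7, 221 and 146 FPKM in the AngII+VAL libraries, against 4.78, 1.56, 8.38, 0.559 and 0.922 FPKM in the AngII libraries. Tnnc2, the troponin C of fast fibres (chr2:164777161-164779967, minus strand), had 412, 249.7, 62.5, 222 and 101 FPKM in the AngII+VAL libraries, against 4.04, 1.13, 8.85, 0.694 and 1.26 FPKM in the AngII libraries. The groups were again apart for both genes, with fold changes of 5.94 (adjusted p = 0.00297, SE 0.60) and 5.69 (adjusted p = 0.00314, SE 0.61) on the log2 scale.

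These 3 genes had the highest mean FPKM in AngII+VAL among those that passed, and their promoters are shown because the genes moved together. Each sequence covers 250 bases before to 50 bases after the RefSeq start site on the gene's own strand, in build GRCm38.p6. Capitals mark the E-box CAGCTG, the site read by myogenic factors such as MyoD, and the CArG box, the site read by serum response factor; both strands were searched and no matches overlapped.
Acta1, chr8:123894726-123895025, minus strand: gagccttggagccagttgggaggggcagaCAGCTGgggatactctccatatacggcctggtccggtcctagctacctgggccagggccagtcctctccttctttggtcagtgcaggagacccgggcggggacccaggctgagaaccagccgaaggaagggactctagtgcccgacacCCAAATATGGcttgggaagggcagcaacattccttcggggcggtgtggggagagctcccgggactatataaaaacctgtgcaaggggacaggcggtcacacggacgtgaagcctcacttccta
Atp2a1, chr7:126463024-126463323, minus strand: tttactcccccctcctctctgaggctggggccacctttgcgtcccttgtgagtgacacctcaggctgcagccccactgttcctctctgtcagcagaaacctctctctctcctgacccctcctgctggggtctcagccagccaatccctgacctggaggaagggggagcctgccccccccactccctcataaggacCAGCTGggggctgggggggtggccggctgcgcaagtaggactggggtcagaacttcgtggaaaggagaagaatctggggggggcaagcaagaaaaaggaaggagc
Tnnc2, chr2:164779685-164779984, minus strand: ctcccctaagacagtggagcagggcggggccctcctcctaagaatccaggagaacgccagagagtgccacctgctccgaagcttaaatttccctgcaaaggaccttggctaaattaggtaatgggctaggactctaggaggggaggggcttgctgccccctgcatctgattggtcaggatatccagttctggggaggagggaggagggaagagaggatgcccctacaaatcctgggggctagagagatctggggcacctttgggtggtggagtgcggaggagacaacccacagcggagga
The Acta1 window held 1 E-box and 1 CArG box, the Atp2a1 window 1 E-box, and the Tnnc2 window 0 of either. Of the 21 genes higher in AngII+VAL 16 had a promoter in the table, with 19 windows in all. The E-box was in 6 of these 19 windows (31.6%), against 5355 of all 32851 windows (16.3%), and the CArG box was in 2 of 19 (10.5%), against 535 of all windows (1.63%). These shares describe letters in the windows and were not tested.

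The fast myosin heavy chains changed with the actin. Myh2 had 116, 70.3, 13.2, 60.98 and 46.1 FPKM in the AngII+VAL libraries, against 0.273, 0.0685, 0, 0 and 0 FPKM in the AngII libraries, and its log2 fold change was 5.58 (adjusted p = 0.00297, SE 0.46). Myh1 had 169, 131, 32.7, 81.4 and 55.5 FPKM in the AngII+VAL libraries, against 2.14, 0, 3.96, 0.501 and 0 FPKM in the AngII libraries, with 5.43 (adjusted p = 0.00297, SE 0.56) on the log2 scale. Myh4 had 152, 45.3, 38.7, 68.8 and 13.03 FPKM in the AngII+VAL libraries, against 1.75, 0, 2.74, 0 and 0 FPKM in the AngII libraries, with 4.94 (adjusted p = 0.00922, SE 0.63). All 3 rose in every AngII+VAL library over every AngII library, and AngII replicates 4 and 5 held less than 1 FPKM of each. The 3 genes are close paralogs in 1 cluster on chromosome 11, so the division of reads between them is uncertain. Mylpf, the regulatory light chain of fast myosin, had 288, 162, 62.8, 101 and 86.7 FPKM in the AngII+VAL libraries, against 3.91, 1.03, 7.001, 0.584 and 0.567 FPKM in the AngII libraries, with a log2 fold change of 5.41 (adjusted p = 0.00297, SE 0.55). Mybpc2, the fast myosin-binding protein C, averaged 23.2 ± 15.04 FPKM in AngII+VAL and 0.782 ± 0.428 FPKM in AngII (SD, n = 5 each), and its log2 fold change was 3.59 (adjusted p = 0.00297, SE 0.37).

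Genes of the Z-disc and of other muscle proteins rose as well. Myot, which encodes myotilin, had 59.1, 35.8, 8.61, 29.3 and 22.2 FPKM in the AngII+VAL libraries, against 0.0345, 0, 1.24, 0 and 0 FPKM in the AngII libraries, and its log2 fold change was 4.52 (adjusted p = 0.00297, SE 0.45). Myoz1, a calcineurin-binding Z-disc protein, spanned 12.04 to 55.8 FPKM in AngII+VAL and 0.281 to 2.01 FPKM in AngII, with 3.89 (adjusted p = 0.00297, SE 0.40). Actn3, the α-actinin of fast fibres, spanned 11.4 to 53.2 FPKM in AngII+VAL and 0.305 to 1.46 FPKM in AngII, with 3.66 (adjusted p = 0.00297, SE 0.38). Myoz3, a relative of Myoz1, and Ankrd2, a stretch-responsive ankyrin repeat protein, had log2 fold changes of 1.42 (adjusted p = 0.0223, SE 0.21) and 2.94 (adjusted p = 0.00297, SE 0.29). Myom3, a myomesin of the M-band, had 2.07 (adjusted p = 0.036, SE 0.32), and Tmod4, which caps thin filaments, had 2.40 (adjusted p = 0.0145, SE 0.32). Smtnl1, a smoothelin-like protein, had 3.23 (adjusted p = 0.0043, SE 0.37), and Rpl3l, the ribosomal protein of striated muscle, 3.22 (adjusted p = 0.0158, SE 0.44). For each of these 9 genes the lowest AngII+VAL library lay above the highest AngII library.

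Genes of calcium handling completed the set. Pvalb, the calcium buffer parvalbumin, had 108, 62.1, 19.9, 50.9 and 26.6 FPKM in the AngII+VAL libraries, against 1.28, 0, 3.31, 0 and 0 FPKM in the AngII libraries, and its log2 fold change was 4.86 (adjusted p = 0.00406, SE 0.54). Cacna1s, the voltage sensor of the transverse tubule, had 17.9, 11.3, 2.89, 8.17 and 5.52 FPKM in the AngII+VAL libraries, against 0.0208, 0, 0, 0 and 0.0209 FPKM in the AngII libraries, with 3.13 (adjusted p = 0.0043, SE 0.36). Jsrp1, a protein of the junctional sarcoplasmic reticulum, had 15.1, 7.79, 2.21, 8.64 and 4.32 FPKM in the AngII+VAL libraries and 0 in each AngII library. Set against a floor of 3 reads per library, its mean was at least 215-fold higher in AngII+VAL (adjusted p = 0.00867).

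**Figure D2:**
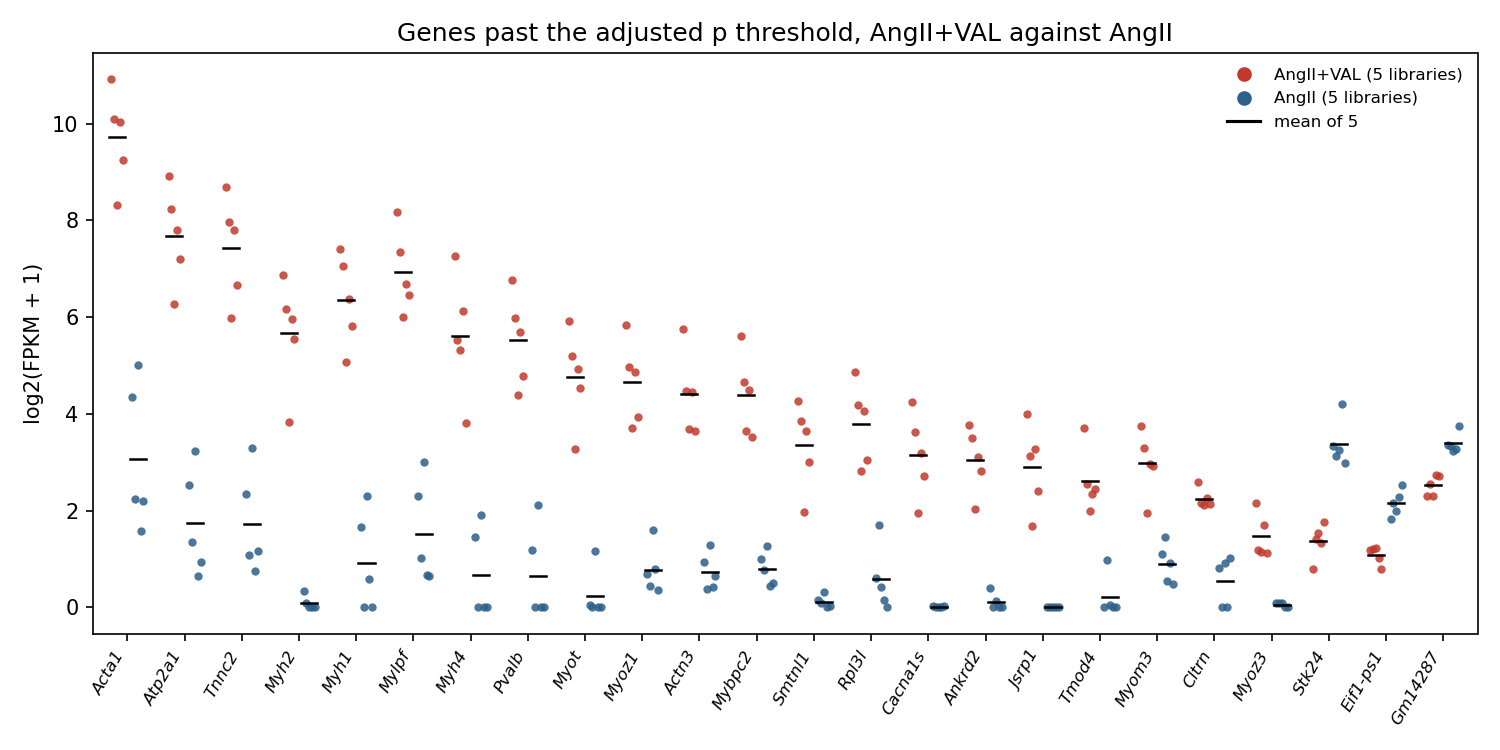
Points are log2(FPKM + 1) of single libraries for the 24 genes with an adjusted p under 0.05, with the 5 AngII+VAL libraries in red left of the 5 AngII libraries in blue, and black bars mark the mean of 5. For all 24 genes the red and blue points do not overlap, with the 21 higher genes on the left and the 3 lower genes on the right.

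Of the 22 genes of the skeletal muscle list 19 were summed and 18 tested, all 18 had log2 fold changes above 0, and 11 passed, higher in AngII+VAL. The median was 4.50, beside -0.12 over all tested genes. In 13 members the AngII+VAL range lay wholly above, beside 0.637% of all tested genes. The list's summed level was 907 to 5145 FPKM in AngII+VAL and 18.3 to 561 FPKM in AngII. In AngII replicate 4 Myh2, Myh4, Pvalb, Myot and Tnni2 were at 0. Fewer muscle cells and less RNA per muscle cell cannot be told apart in tissue RNA. In the Control libraries, from mice without angiotensin II, Acta1 ranged from 4.12 to 2242 FPKM, which spans the values of both groups. Where the muscle score of each library was added to the model as a term, 0 genes passed with limma (lowest adjusted p = 0.207) and 439 had an unadjusted p under 0.05. That score separates the groups itself, and the median SE was 3.28 times larger in that fit. Values with this term, here and below, therefore cannot tell muscle content from the treatment.

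The members that did not pass were spread unevenly over the AngII libraries, and they are named here after their values were seen. Mb, myoglobin, had 543, 367, 100.4, 342 and 208 FPKM in the AngII+VAL libraries, against 11.8, 311, 10.5, 3.59 and 1.32 FPKM in the AngII libraries. Tnnc1, the troponin C of slow and cardiac fibres, had 32, 6.96, 5.48, 19.2 and 14.6 FPKM in the AngII+VAL libraries, against 1.34, 102, 0.987, 0.674 and 0.390 FPKM in the AngII libraries. Myh7, the slow and cardiac myosin, had 38.3, 3.77, 5.35, 1.65 and 18.1 FPKM in the AngII+VAL libraries, against 0.256, 21.8, 0.548, 0.0771 and 0 FPKM in the AngII libraries. AngII replicate 2 was thus high in these 3 genes while it held 0.0685 FPKM of Myh2 and 0 of Myh1 and Myh4. Ckm, muscle creatine kinase, had 364, 188, 63.4, 195 and 87.7 FPKM in the AngII+VAL libraries, against 5.79, 44.7, 7.28, 1.23 and 1.43 FPKM in the AngII libraries, with the same library highest among the AngII libraries. Their log2 fold changes were 4.30 (adjusted p = 0.243, SE 1.14) for Mb, 1.78 (adjusted p = 0.489, SE 1.11) for Tnnc1, 2.06 (adjusted p = 0.416, SE 0.99) for Myh7 and 4.48 (adjusted p = 0.0928, SE 0.81) for Ckm. Without AngII replicate 2, 16 of the 18 tested members passed.

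A gene of the kidney proximal tubule was also higher with valsartan. Cltrn, collectrin, a membrane protein of the renal brush border (chrX:164088830-164118860), had 5.002, 3.44, 3.35, 3.77 and 3.38 FPKM in the AngII+VAL libraries, against 0.764, 0, 0.898, 0 and 1.03 FPKM in the AngII libraries. Its ranges did not overlap and its log2 fold change was 1.70 (adjusted p = 0.0162, SE 0.24). Of the 15 genes of the kidney list 5 were summed and 4 tested, 3 of them above 0 and 1 below, and 0 passed with limma. An unadjusted p under 0.05 was found for 2 of them, both higher, beside 2.75% of all tested genes. Kap, the androgen-regulated kidney protein, had 92.1, 65.6, 70.5, 66.4 and 68.9 FPKM in the AngII+VAL libraries, against 25.5, 0.0721, 25.6, 0 and 29 FPKM in the AngII libraries. Slc34a1, the phosphate transporter of the proximal tubule, had 8.04, 4.30, 4.60, 4.43 and 5.48 FPKM in the AngII+VAL libraries, against 1.49, 0, 1.96, 0 and 2.15 FPKM in the AngII libraries. Both were higher in each AngII+VAL library than in any AngII library, at 3.30 (adjusted p = 0.296, SE 1.04) and 1.73 (adjusted p = 0.168, SE 0.37) on the log2 scale. Such separate higher ranges were found for 0.637% of all tested genes. AngII replicates 2 and 4, which held 0 of Slc34a1 and at most 0.0721 FPKM of Kap, held 0 of Cltrn as well. Nphs1, nephrin of the podocyte, went the other way at -1.47 (adjusted p = 0.412, SE 0.70), with 0.00665, 2.94, 0, 2.52 and 0 FPKM in the AngII+VAL libraries, against 3.67, 0, 4.44, 5.25 and 13.5 FPKM in the AngII libraries.

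With the log2 level of Kap in each library as a term, chosen after seeing the data, 2 genes passed and neither was among the 24. Kap itself separates the groups, so this fit cannot tell kidney RNA from the treatment. The distal tubule marker Umod was listed for AngII+VAL only, at a mean of 2.29 FPKM, and Slc12a1 was not among the summed genes. Other genes known from the kidney tubule were also listed for AngII+VAL only, and are named here after their values were seen. They include Akr1c21, Cyp2j5 and Slc22a12, at means of 2.98, 2.14 and 1.36 FPKM. Judged by the values, transcripts missing from the AngII list average under 0.5 FPKM in AngII, so the tests above leave such genes out. The summed level of the kidney list was 201 to 247 FPKM in AngII+VAL and 123 to 181 FPKM in AngII. Most of it was Aqp1, a water channel that endothelium also carries. The part of kidney RNA in the other results was not tested.

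The 3 genes lower with valsartan were Stk24 and a pair of processed pseudogenes. Stk24, a kinase of the sterile 20 family (chr14:121286343-121380011, minus strand), had 0.740, 1.66, 1.89, 1.51 and 2.39 FPKM in the AngII+VAL libraries, against 9.12, 7.80, 8.51, 17.4 and 6.88 FPKM in the AngII libraries. The groups did not overlap, and the log2 fold change was -2.01 (adjusted p = 0.00867, SE 0.25). The value rests on 1 transcript, and in Control libraries it ranged from 0.927 to 21.2 FPKM. Gm14287 had 3.95, 4.83, 3.91, 5.70 and 5.57 FPKM in the AngII+VAL libraries, against 9.22, 9.04, 8.45, 8.74 and 12.4 FPKM in the AngII libraries, and its log2 fold change was -0.87 (adjusted p = 0.0495, SE 0.14). Eif1-ps1 spanned 0.722 to 1.35 FPKM in AngII+VAL and 2.54 to 4.80 FPKM in AngII, with -1.07 (adjusted p = 0.0267, SE 0.16). Reads of pseudogenes and of their parent genes are hard to tell apart, so these values are uncertain.

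Processed and other pseudogenes were frequent among genes with separate ranges. Of 663 tested pseudogenes 70 were lower in every AngII+VAL library than in every AngII library (10.6%), beside 2.39% of all tested genes. The reverse held for 4 pseudogenes, beside 0.637% of all tested genes. After median scaling the counts were 48 lower (7.24%), beside 1.12% of all tested genes, and 14 higher, beside 1.19%. Among the genes with the smallest p and separate ranges below those that passed, Gm8355, Gm19810, Rpl31-ps9 and Gm12922 had log2 fold changes of -0.80, -0.85, -1.18 and -0.82, with adjusted p from 0.0895 to 0.106 (limma). Rpl37rt, a retrocopy of a ribosomal protein gene, spanned 27.4 to 37.8 FPKM in AngII+VAL and 44.2 to 68.6 FPKM in AngII.

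The other genes chosen by that rule did not pass either, and they encode proteins of varied function. Vps13d, a lipid transfer protein, had 0.0225, 0.0144, 0.0165, 0.721 and 0.899 FPKM in the AngII+VAL libraries, against 8.48, 1.46, 6.49, 7.84 and 4.09 FPKM in the AngII libraries, and its log2 fold change was -2.23 (adjusted p = 0.0655, SE 0.38). AngII+VAL replicates 1, 2 and 3 were far below replicates 4 and 5, and the Control libraries ranged from 0.521 to 2.38 FPKM. Slc38a2, an amino acid transporter, had 25.8, 24.2, 22.1, 22.3 and 29.8 FPKM in the AngII+VAL libraries, against 35.4, 66.6, 78.02, 43.4 and 45.3 FPKM in the AngII libraries, with -1.03 (adjusted p = 0.139, SE 0.21). Hoxc6, a homeobox gene of the trunk, had 1.48, 2.86, 1.62, 1.82 and 2.12 FPKM in the AngII+VAL libraries, against 3.78, 4.88, 5.61, 6.98 and 4.04 FPKM in the AngII libraries, with -1.02 (adjusted p = 0.0804, SE 0.18). Each of these 3 genes was lower in all AngII+VAL libraries than in any AngII library. Tra2b, a splicing regulator, and Klhl5, of the Kelch family, had log2 fold changes of -0.81 (adjusted p = 0.122, SE 0.16) and -0.60 (adjusted p = 0.139, SE 0.12).

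No gene of the renin-angiotensin system passed. Of 21 listed genes 16 were summed and 15 tested, 4 above 0 and 11 below, with a median log2 fold change of -0.28, beside -0.12 over all tested genes, and 0 had an unadjusted p under 0.05. Agtr1a, the main type 1 receptor of the mouse vessel and the target of valsartan (chr13:30336441-30382867), had 3.07, 2.94, 3.999, 8.15 and 2.67 FPKM in the AngII+VAL libraries, against 9.16, 4.13, 2.82, 7.26 and 15.99 FPKM in the AngII libraries. The ranges overlapped widely and the log2 fold change was -0.68 (adjusted p = 0.478, SE 0.41), with a 95% interval of -1.58 to 0.23. Agtr1b had 0.535, 1.06, 0.427, 0.835 and 1.79 FPKM in the AngII+VAL libraries, against 0.964, 1.13, 1.10, 4.10 and 4.19 FPKM in the AngII libraries, with -0.67 (adjusted p = 0.435, SE 0.34). Its highest values were those of AngII replicates 4 and 5, and the highest Agtr1a values were in AngII+VAL replicate 4 and AngII replicates 1, 4 and 5, the libraries of high neuron score. With that score as a term the log2 fold changes were -0.066 (SE 0.17) for Agtr1a and -0.48 (SE 0.37) for Agtr1b. The libraries of high score were spread unevenly over the groups, and the part of nerve RNA in these values was not tested. With the skeletal muscle score, which separates the groups itself, as a term Agtr1a was at 1.30 (SE 1.19) and Agtr1b at 1.06 (SE 0.97). In Control libraries Agtr1a ranged from 2.83 to 3.86 FPKM.

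Among the enzymes and substrates, Ace, the converting enzyme that releases angiotensin II, had 63.1, 79.2, 78.1, 121 and 118 FPKM in the AngII+VAL libraries, against 105, 147, 124, 98.2 and 103 FPKM in the AngII libraries, at -0.35 (adjusted p = 0.465, SE 0.20). Agt, the precursor angiotensinogen, had 1.73, 0, 0, 1.54 and 0 FPKM in the AngII+VAL libraries, against 0, 0.768, 1.48, 10.4 and 21.6 FPKM in the AngII libraries, at -1.47 (adjusted p = 0.462, SE 0.82), so that AngII replicates 4 and 5 held the high values. Ren1, renin, was under 1 FPKM in all 10 libraries and was not tested. Agtr2 was not among the summed genes. The members with the smallest p were Atp6ap2, the prorenin receptor, at -0.31 (adjusted p = 0.434, SE 0.16), and Agtr1b below 0, and Mme, neprilysin, at 0.18 (adjusted p = 0.704, SE 0.21), and Arap1, a trafficking partner of the receptor, at 0.17 (adjusted p = 0.88, SE 0.45) above 0.

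Contractile genes of smooth muscle showed no change that passed. Of 30 listed genes 29 were summed and 28 tested, 10 above 0 and 18 below, with a median of -0.088 that became 0.052 after median scaling. An unadjusted p under 0.05 was found for 2, beside 12.4% of all tested genes. Acta2 had 3515, 4151, 3754, 5243 and 5717 FPKM in the AngII+VAL libraries, against 4331, 4302, 4139.7, 3312 and 3335 FPKM in the AngII libraries. Its log2 fold change was 0.19 (adjusted p = 0.64, SE 0.18), the groups overlapped, and the value was -0.12 after quantile normalization. Myh11, smooth muscle myosin, had -0.041 (adjusted p = 0.917, SE 0.14), Mylk, the myosin light chain kinase, -0.16 (adjusted p = 0.609, SE 0.14), and Myl9, the regulatory light chain, -0.12 (adjusted p = 0.787, SE 0.18). After median scaling Myh11 was at 0.099 and Myl9 at 0.024, above 0. The 95% interval for Myh11 was -0.36 to 0.28. Within AngII+VAL, replicates 4 and 5 were the highest for Acta2, Myh11, Mylk and Myl9. Des, desmin, was at 0.92 (adjusted p = 0.331, SE 0.33), with 194, 138, 60.5, 112 and 107 FPKM in the AngII+VAL libraries, against 38.6, 77.3, 41.8, 76.7 and 79.9 FPKM in the AngII libraries. Desmin is shared by smooth and skeletal muscle. With the skeletal muscle score, which separates the groups itself, as a term its value was -0.15 (SE 1.03). The part of skeletal muscle in this value was not tested. Cald1, caldesmon, and Lmod1, a leiomodin, were below 0 at -0.34 (adjusted p = 0.369, SE 0.13) and -0.23 (adjusted p = 0.5, SE 0.15), and Ppp1r12b, a regulatory subunit of myosin phosphatase, above 0 at 0.76 (adjusted p = 0.499, SE 0.48).

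**Figure D3:**
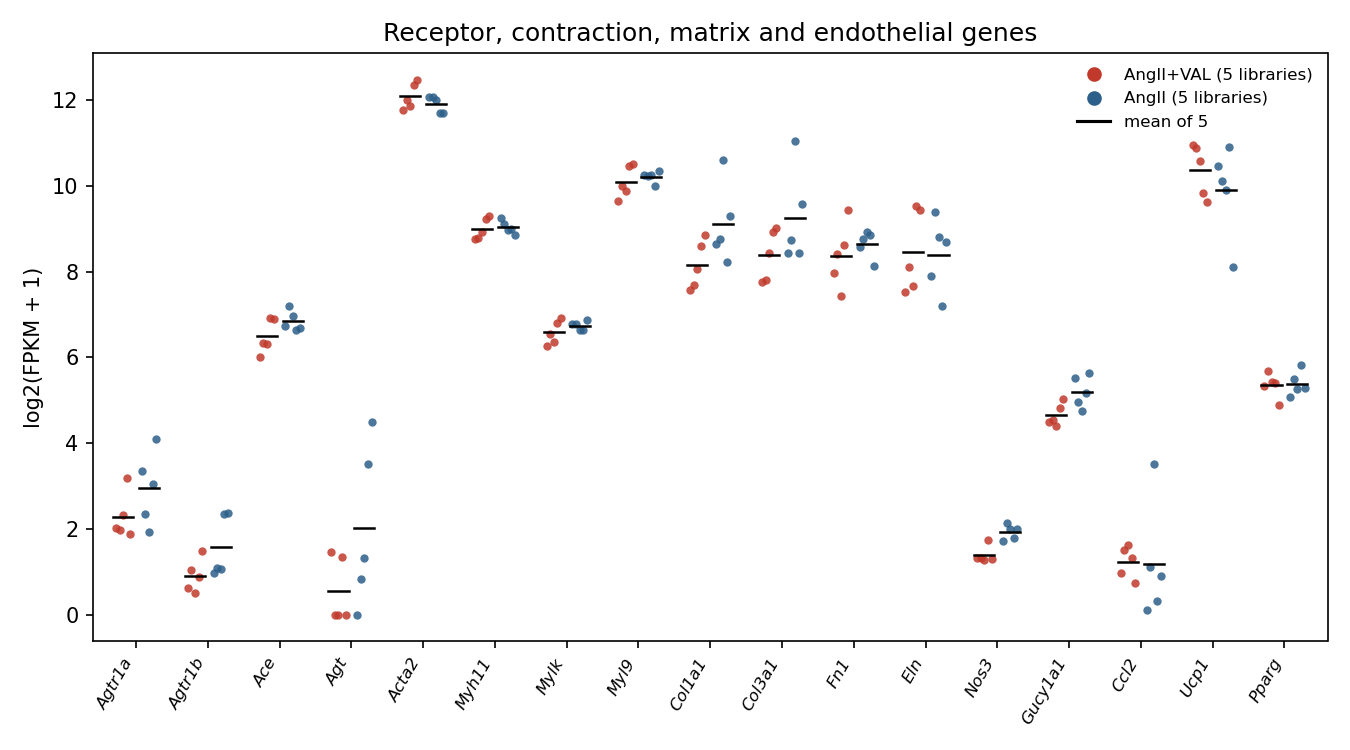
Points are log2(FPKM + 1) of single libraries for 17 genes of the angiotensin receptor, contraction, matrix, endothelium and fat, with the 5 AngII+VAL libraries in red left of the 5 AngII libraries in blue and black bars at the mean of 5. Red and blue points overlap for every gene, for Nos3 only through AngII+VAL replicate 4.

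Most fibroblast and matrix genes lay below 0, and none passed. Of all tested genes 31.4% lay above 0, and 9.68% were lower at an unadjusted p under 0.05. All 20 tested of the 21 adventitial fibroblast genes had log2 fold changes below 0, with a median of -0.53 (-0.39 after median scaling), beside -0.12 over all tested genes. An unadjusted p under 0.05 was found for 7 of them. Dpep1, a membrane dipeptidase, had 40.4, 59.1, 56.6, 54.8 and 76.4 FPKM in the AngII+VAL libraries, against 88.5, 92.2, 83.5, 104 and 131 FPKM in the AngII libraries. Serpinf1, the secreted factor PEDF, had 76.9, 90.3, 86.5, 122 and 119 FPKM in the AngII+VAL libraries, against 136, 258, 151, 136 and 181 FPKM in the AngII libraries. Both were lower in every AngII+VAL library than in any AngII library, at -0.80 (adjusted p = 0.184, SE 0.18) and -0.77 (adjusted p = 0.243, SE 0.21). Such separate lower ranges were found for 2.39% of all tested genes. The list's score was 5.36, 5.68, 5.79, 5.93 and 5.86 in AngII+VAL, against 5.76, 6.32, 6.67, 5.94 and 6.47 in AngII, so the groups overlapped through AngII replicate 1. With the skeletal muscle score, which separates the groups itself, as a term the median was -0.067.

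Of 24 tested genes of fibrillar collagen and its cross-linking 21 lay below 0 and 3 above, with a median of -0.45 (-0.32 after median scaling). Only 1 was lower at an unadjusted p under 0.05, beside 9.68% of all tested genes. Col1a1, the main chain of type I collagen, had 191, 207, 266, 385 and 465 FPKM in the AngII+VAL libraries, against 401, 435, 1568, 297 and 626 FPKM in the AngII libraries. Col3a1, type III collagen, had 216, 224, 347, 487 and 517 FPKM in the AngII+VAL libraries, against 346, 425, 2120.1, 345 and 769 FPKM in the AngII libraries. The value of AngII replicate 3 was far above the other AngII libraries for both, and the rest of the AngII range overlapped that of AngII+VAL. The log2 fold changes were -0.95 (adjusted p = 0.407, SE 0.44) and -0.86 (adjusted p = 0.475, SE 0.51), and the 95% interval for Col1a1 was -1.92 to 0.023. Loxl3, a lysyl oxidase, was at -0.51 (adjusted p = 0.378, SE 0.21), and Loxl2, its relative, and Col15a1, a collagen near basement membranes, were above 0 at 0.59 (adjusted p = 0.492, SE 0.37) and 0.32 (adjusted p = 0.668, SE 0.32). Fn1, fibronectin, spanned 171 to 698 FPKM in AngII+VAL and 279 to 488 FPKM in AngII, at -0.27 (adjusted p = 0.723, SE 0.34).

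The elastic fibre list had 13 of 15 tested genes below 0 and a median of -0.42 (-0.29 after median scaling). Of these, 4 were lower at an unadjusted p under 0.05, beside 9.68% of all tested genes. Efemp2, fibulin-4, which guides the cross-linking of elastin, was at -0.98 (adjusted p = 0.315, SE 0.32), and Fbln5, fibulin-5, at -0.61 (adjusted p = 0.36, SE 0.23). Eln, elastin, had 184, 274, 203, 735 and 689 FPKM in the AngII+VAL libraries, against 236, 675, 448, 146 and 411 FPKM in the AngII libraries, at 0.054 (adjusted p = 0.971, SE 0.52). The highest and the lowest libraries of each group lay far apart, so that a change of this gene was not detectable here. Fbn1, fibrillin, varied as widely, at 0.26 (adjusted p = 0.906, SE 0.84). The lists of matrix proteases, basement membrane and matricellular proteins had 19 of 23, 13 of 14 and 17 of 23 tested genes below 0, beside 31.4% of all tested genes above 0. Their medians were -0.39, -0.30 and -0.27, or -0.26, -0.16 and -0.13 after median scaling.

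Nitric oxide from the endothelium relaxes smooth muscle through cyclic GMP. Of 24 listed genes of this pathway 17 were summed and 14 tested, and 13 of these lay below 0 without passing. Genes with transcripts in the AngII+VAL list alone are not among those tested. The median was -0.31 (-0.18 after median scaling), and 4 were lower at an unadjusted p under 0.05. Of all tested genes 9.68% were lower at such a p, and 31.4% lay above 0. Nos3, the endothelial synthase, had 1.49, 1.49, 1.42, 2.33 and 1.47 FPKM in the AngII+VAL libraries, against 2.26, 3.43, 2.97, 2.46 and 2.97 FPKM in the AngII libraries, at -0.53 (adjusted p = 0.239, SE 0.14). AngII+VAL replicate 4 stood apart from the other AngII+VAL libraries and inside the AngII range. Gucy1a1, a subunit of the guanylate cyclase that nitric oxide activates, had 21.5, 22.3, 20.3, 27.1 and 31.5 FPKM in the AngII+VAL libraries, against 44.6, 30.1, 25.7, 34.8 and 49.1 FPKM in the AngII libraries, at -0.55 (adjusted p = 0.33, SE 0.19). With the skeletal muscle score, which separates the groups itself, as a term Gucy1a1 was at 0.12 (SE 0.60). Npr2, the receptor for C-type natriuretic peptide, was lower in every AngII+VAL library, 18.96 to 24.7 FPKM in AngII+VAL and 24.9 to 27.7 FPKM in AngII, at -0.30 (adjusted p = 0.292, SE 0.09). Mrvi1, which links the cyclic GMP kinase to calcium release, was above 0 at 1.08 (adjusted p = 0.458, SE 0.59). Endothelial markers as a list had a median of -0.11 (0.03 after median scaling), 5 of 25 above 0, and Vwf spanned 22.8 to 40.9 FPKM in AngII+VAL and 28.5 to 46.4 FPKM in AngII. Ccl2, a monocyte chemokine, was at 0.048 (adjusted p = 0.978, SE 0.57) and Pparg, the adipocyte regulator, at -0.038 (adjusted p = 0.937, SE 0.17), or 0.099 after median scaling.

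Nerve genes had the lowest medians of all lists. All 14 tested of the 23 sympathetic neuron genes lay below 0, with a median of -2.09, and 0 passed with limma, while 0 had an unadjusted p under 0.05. Th, tyrosine hydroxylase of noradrenaline synthesis, had 0, 0.0294, 1.70, 43.7 and 0.0411 FPKM in the AngII+VAL libraries, against 103, 0.0906, 0.800, 32.02 and 145 FPKM in the AngII libraries. Tubb3, the neuronal tubulin, had 0.198, 0.475, 2.51, 41.4 and 0.644 FPKM in the AngII+VAL libraries, against 109, 0.539, 3.85, 29.6 and 148 FPKM in the AngII libraries. Hand2, a transcription factor of sympathetic neurons, had 0.0899, 0.320, 0.445, 9.16 and 0.608 FPKM in the AngII+VAL libraries, against 21.9, 0.531, 2.74, 5.11 and 23.3 FPKM in the AngII libraries. AngII+VAL replicate 4 and AngII replicates 1, 4 and 5 held 32.02 FPKM or more of Th and the other 6 libraries at most 1.70 FPKM, so the groups overlapped. The log2 fold changes of Tubb3 and Hand2 were -2.62 (adjusted p = 0.454, SE 1.42) and -1.83 (adjusted p = 0.412, SE 0.87), and with the skeletal muscle score as a term 4.26 and 1.28. The summed level of the neuron list was 16.3 to 593 FPKM in AngII+VAL and 24.2 to 1809 FPKM in AngII. Schwann cell genes followed, with all 14 tested of 17 below 0 and a median of -0.93. Of these, 2 were lower at an unadjusted p under 0.05, beside 9.68% of all tested genes. The Schwann cell score was 1.48, 1.72, 2.0, 2.36 and 1.99 in the AngII+VAL libraries, against 3.02, 1.58, 2.41, 2.76 and 4.07 in the AngII libraries, so that AngII replicate 2 alone overlapped the AngII+VAL range. Without the 4 libraries of high neuron score the medians were 0.052 for the neuron list and -0.035 for the Schwann cell list. Those libraries were left out for their level of the neuron list itself, so its median there is no separate result. Among Schwann cell genes 1 was lower with ranges that did not overlap, beside 2.39% of all tested genes. It was Ncam1, an adhesion molecule named after its values were seen, which spanned 0.856 to 1.08 FPKM in AngII+VAL and 1.11 to 1.26 FPKM in AngII, at -0.13 (adjusted p = 0.58, SE 0.10). Prx, periaxin of the myelin sheath, had 1.27, 2.02, 2.19, 2.50 and 2.85 FPKM in the AngII+VAL libraries, against 4.05, 2.07, 3.56, 3.70 and 11.5 FPKM in the AngII libraries, at -0.76 (adjusted p = 0.393, SE 0.33). With the neuron score as a term 15 genes passed, 14 of them among the 24, and 10 of the 18 tested skeletal muscle genes were among those 15. Without the 4 libraries of high neuron score, which left 4 AngII+VAL and 2 AngII libraries, 4 genes passed and none of them was among the 24.

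**Figure D4:**
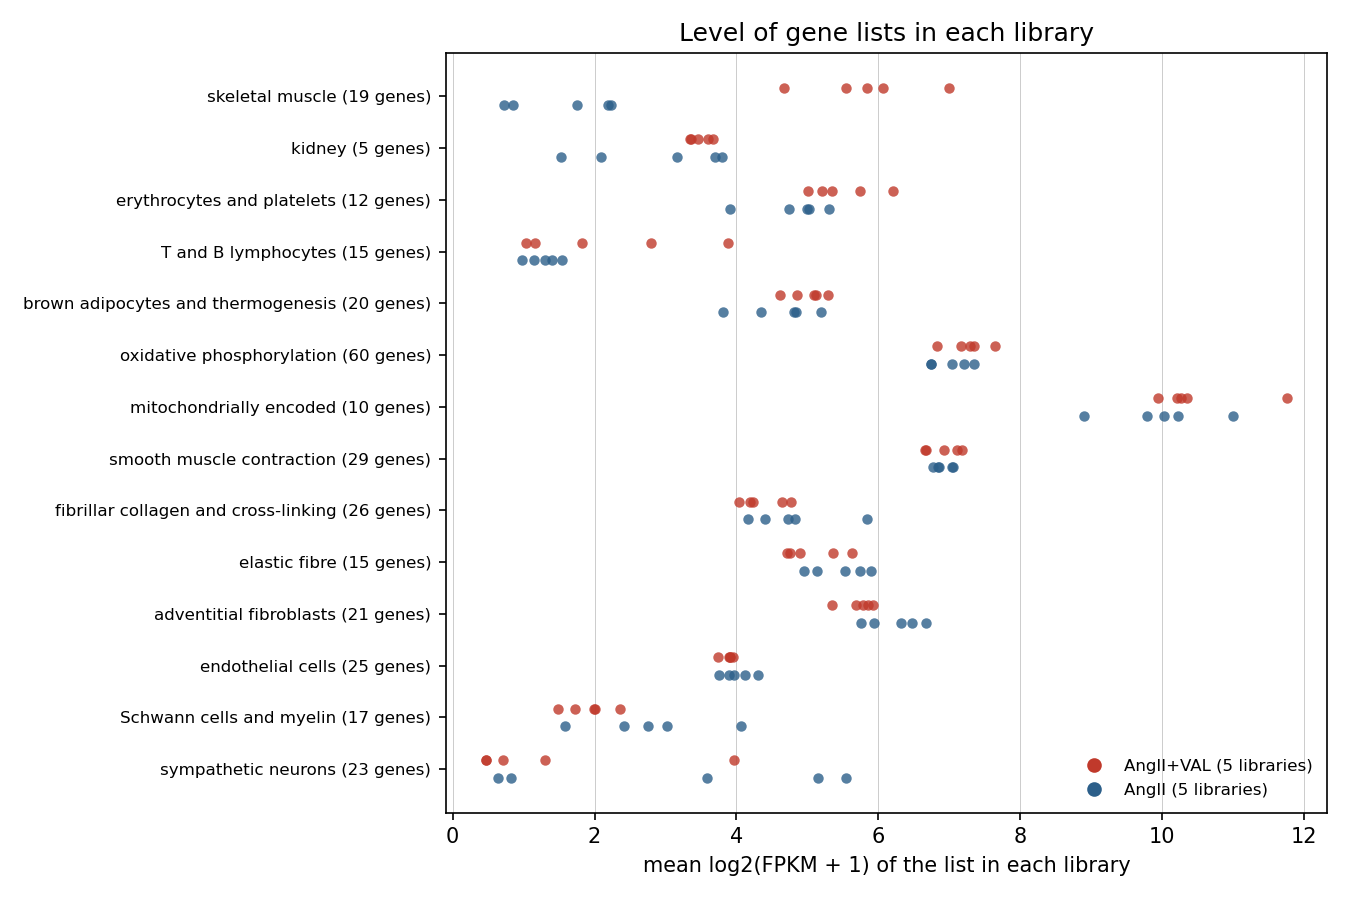
Each row is a gene list and each point the mean log2(FPKM + 1) of its genes in 1 library, with AngII+VAL in red above AngII in blue. The red and blue points are separate for skeletal muscle alone, and the neuron row is split within both groups, with 1 red and 3 blue points above 2.

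Genes of mitochondria and brown fat mostly had higher means with valsartan, without passing. Of 60 nuclear genes of oxidative phosphorylation 52 lay above 0, with a median of 0.24 (0.38 after median scaling), and of 27 fatty acid oxidation genes 22 lay above 0, with a median of 0.42. An unadjusted p under 0.05 was found for 3 higher and 1 lower gene of oxidative phosphorylation and for 4 higher and 1 lower gene of fatty acid oxidation, beside 2.75% higher and 9.68% lower of all tested genes. Ndufs8, of complex I, had 43.7, 17.8, 33.9, 32.8 and 16.7 FPKM in the AngII+VAL libraries, against 12.9, 21.1, 16.8, 18.1 and 9.77 FPKM in the AngII libraries, at 0.79 (adjusted p = 0.353, SE 0.29). Atp5f1, of the ATP synthase, was at 0.47 (adjusted p = 0.378, SE 0.19), while Atp5k and Atp5g3 of the same enzyme were below 0 at -0.49 (adjusted p = 0.385, SE 0.20) and -0.52 (adjusted p = 0.552, SE 0.39). The brown adipocyte list had 17 of 20 tested genes above 0 and a median of 0.45, and 3 had an unadjusted p under 0.05. Ucp1 had 1982, 1892, 1537, 919 and 785 FPKM in the AngII+VAL libraries, against 1422, 1113, 953, 1917 and 275 FPKM in the AngII libraries, at 0.48 (adjusted p = 0.674, SE 0.50). Fabp3, a fatty acid binding protein of brown fat and striated muscle, was at 1.45 (adjusted p = 0.38, SE 0.59), and Plin5, a lipid droplet protein of the same tissues, at 0.90 (adjusted p = 0.331, SE 0.32). Ebf2 and Ppargc1b, regulators of brown adipocytes, were below 0 at -0.21 (adjusted p = 0.582, SE 0.17) and -0.51 (adjusted p = 0.557, SE 0.39). Scores of these lists overlapped between the groups, and with the skeletal muscle score as a term the medians were -0.29 for oxidative phosphorylation and -0.54 for brown adipocytes. White adipocyte genes had 12 members above 0 and 12 below.

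Of 9 tested genes of the mitochondrial genome 6 lay above 0, with a median of 0.39, and 1 had an unadjusted p under 0.05. mt-Nd6, the subunit of complex I encoded on the light strand, had 1764, 1728, 1774, 1353 and 1094 FPKM in the AngII+VAL libraries, against 1074, 863, 561, 764 and 347 FPKM in the AngII libraries. Each AngII+VAL library exceeded each AngII library, and the log2 fold change was 1.17 (adjusted p = 0.228, SE 0.29). mt-Nd6 lies opposite other transcripts of the genome, and the use of strand in counting is not given in the sources used here, so its reads are uncertain. mt-Co1, of complex IV, was at 0.49 (adjusted p = 0.404, SE 0.22), and mt-Nd1 and mt-Nd2, of complex I, were below 0 at -0.17 (adjusted p = 0.709, SE 0.20) and -0.62 (adjusted p = 0.467, SE 0.35). The list's score was highest in AngII+VAL replicate 1, at 11.77, and lowest in AngII replicate 3, at 8.91.

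Genes of blood and lymphocytes were above 0 in every tested member. The erythrocyte and platelet list had 11 of 11 tested genes above 0 and a median of 0.86, with 0 passing. Of these, 4 were higher at an unadjusted p under 0.05, beside 2.75% of all tested genes. Slc4a1, the anion exchanger of red cells, had 1.24, 1.02, 2.99, 4.85 and 1.97 FPKM in the AngII+VAL libraries, against 1.04, 0.146, 0.890, 0.815 and 0.674 FPKM in the AngII libraries, at 0.91 (adjusted p = 0.305, SE 0.30). The list's summed level, mostly globin, was 8365 to 28299.7 FPKM in AngII+VAL and 2045 to 10422 FPKM in AngII. The lymphocyte list had 8 of 8 tested genes above 0 and a median of 0.91, and 0 had an unadjusted p under 0.05. Igkc, the kappa light chain constant region, had 10.1, 1217, 12.7, 36.7 and 219 FPKM in the AngII+VAL libraries, against 0.334, 20.1, 29.1, 43.04 and 0.408 FPKM in the AngII libraries, at 2.97 (adjusted p = 0.435, SE 1.51). Cd79a, of the B cell receptor, had 2.20, 5.53, 0.853, 2.99 and 25.2 FPKM in the AngII+VAL libraries, against 1.31, 1.80, 0.878, 0.746 and 1.46 FPKM in the AngII libraries, at 1.26 (adjusted p = 0.412, SE 0.59). AngII+VAL replicates 2 and 5 exceeded every AngII library in both genes, replicate 2 being highest for Igkc and replicate 5 for Cd79a. The other AngII+VAL libraries lay in or near the AngII range. Macrophage genes as a list had a median of -0.15 (-0.042 after median scaling), with AngII+VAL replicate 2 the highest library. Inflammatory cytokines and chemokines had a median of -0.29 (-0.18 after median scaling). Over all tested genes the median was -0.12 before scaling.

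The circadian clock is a feedback loop in which Bmal1 and Clock activate repressors of their own expression. Of 18 tested genes 9 lay above 0 and 9 below, with a median of -0.013 (0.12 after median scaling). With limma 0 passed, while 4 had an unadjusted p under 0.05, beside 12.4% of all tested genes. Nr1d1, the repressor REV-ERBα (chr11:98767932-98775333, minus strand), had 82.6, 92.99, 34.3, 89.6 and 109.6 FPKM in the AngII+VAL libraries, against 17.1, 22.4, 33.97, 9.25 and 18.7 FPKM in the AngII libraries. The lowest AngII+VAL library, replicate 3, lay just above the highest AngII library, also replicate 3, and the log2 fold change was 1.97 (adjusted p = 0.106, SE 0.37). With the skeletal muscle score, which separates the groups itself, as a term it was -0.37. Nfil3, a repressor that acts against the Dbp family, had 6.42, 3.13, 3.05, 4.75 and 3.01 FPKM in the AngII+VAL libraries, against 10.8, 12.1, 7.46, 8.50 and 6.58 FPKM in the AngII libraries, at -1.01 (adjusted p = 0.181, SE 0.22). Cry1, a repressor of the Clock complex, had 2.47, 2.79, 2.74, 2.88 and 2.38 FPKM in the AngII+VAL libraries, against 4.48, 4.40, 3.38, 3.34 and 3.67 FPKM in the AngII libraries, at -0.40 (adjusted p = 0.273, SE 0.12). Both were lower in all AngII+VAL libraries than in any AngII library. Separate ranges were thus found for 1 higher and 2 lower members, beside 0.637% and 2.39% of all tested genes. Dbp, an activator under direct clock control, was at 0.80 (adjusted p = 0.387, SE 0.33). The labels give no time of day of tissue collection, so a time difference and the treatment cannot be told apart. In Control libraries Nr1d1 ranged from 21.2 to 85 FPKM.

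Across all 46 gene lists only the skeletal muscle list had a member that passed, and 13 medians lay above 0 and 33 below. Of the 43 lists with at least 5 tested genes the highest medians belonged to skeletal muscle (4.50), lymphocytes (0.91), erythrocytes and platelets (0.86) and brown adipocytes (0.45). The lowest belonged to sympathetic neurons (-2.09), Schwann cells (-0.93), adventitial fibroblasts (-0.53) and fibrillar collagen (-0.45). Lists of endoplasmic reticulum stress, cholesterol synthesis, oxidative stress and cell cycle had medians between -0.14 and -0.12, close to that of all tested genes.

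**Figure D5:**
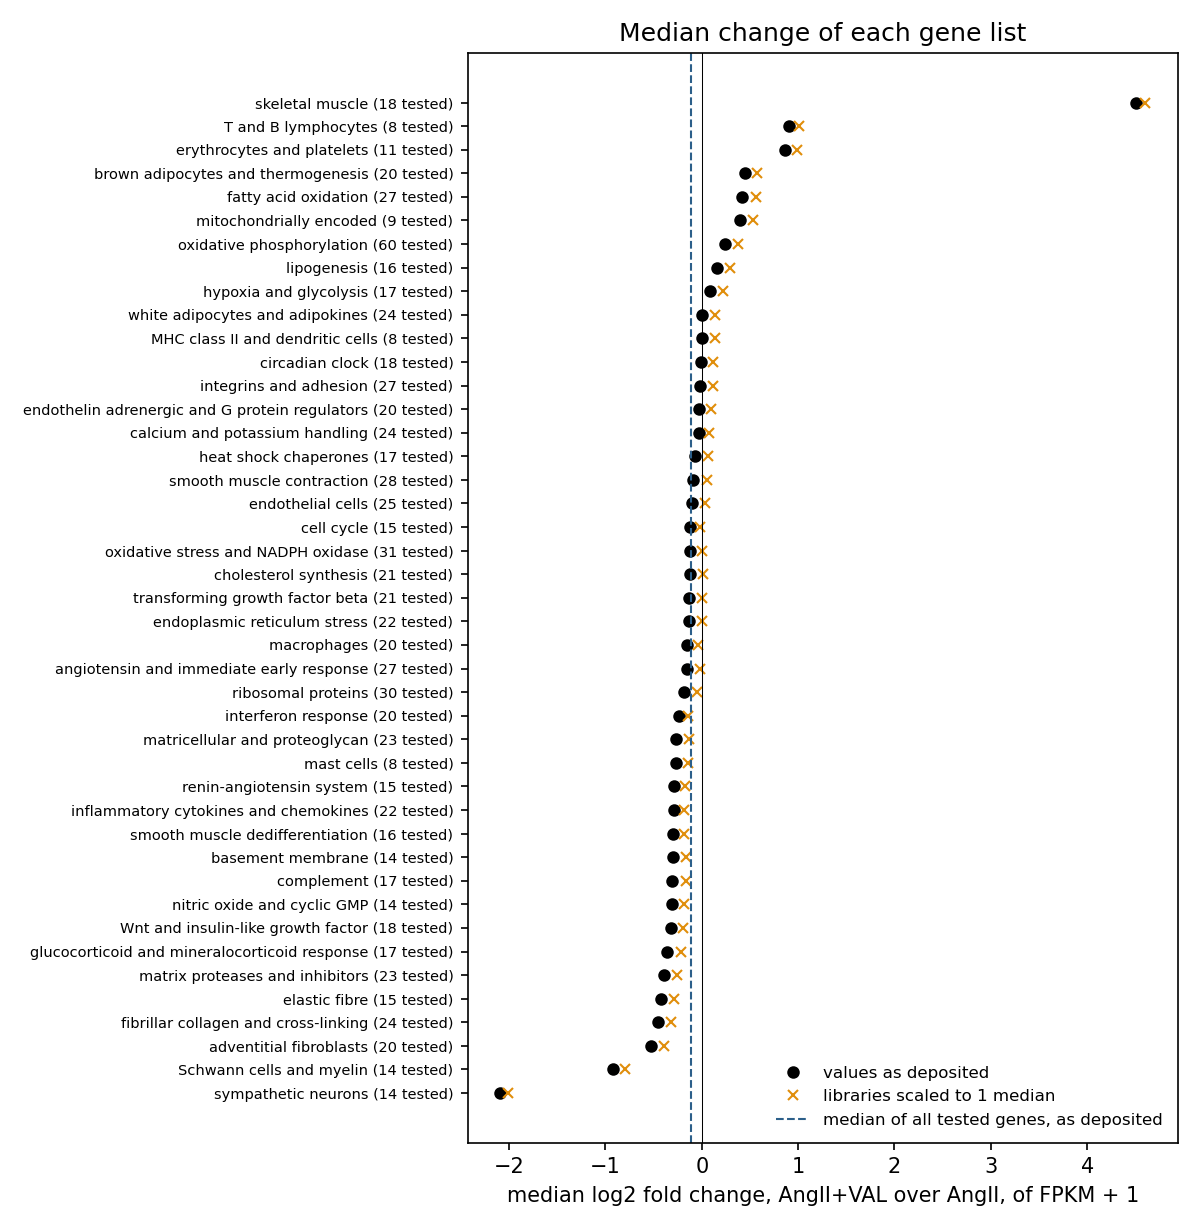
Black points are the median log2 fold change of FPKM + 1, AngII+VAL over AngII, of each of the 43 lists with at least 5 tested genes, and orange crosses the same after scaling the libraries to 1 median; the dashed line marks the median of all tested genes, -0.12. Skeletal muscle lies at 4.50, far to the right of all other lists, and sympathetic neurons at -2.09 far to the left.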

How the data were processed

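The authors deposited FPKM values per transcript. No header names the unit, which was read off the values themselves: 98.9% or more of the low values in every AngII+VAL and AngII library were within 0.1 read of a whole number of reads, which gave 74.3 to 79.8 M (megareads) per library in AngII+VAL and 75.9 to 78.8 M in AngII. Per the submitters' processing notes the build was mm10 and limma was used; aligner and quantifier are not given in the sources used here, nor is the use of strand in counting. Of 42614 transcripts listed for AngII+VAL and 42860 for AngII, 40660 were in both lists, and the 28550 of these that GENCODE M21 annotates were summed to 14577 genes. Judged by the values, the AngII list leaves out transcripts under 0.5 FPKM on average in both AngII and Control, so genes above that level in AngII+VAL alone are not in the comparison.

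A gene was tested where 5 or more of the 10 libraries reached 1 FPKM (12094 genes). The fit used limma 3.58.1 in R 4.3.3 on log2(FPKM + 1) (lmFit, eBayes with trend and robust; 8 residual and 2.18 prior degrees of freedom), two-sided, with Benjamini-Hochberg adjustment over all tested genes at 0.05. Tables, motif searches and plots used Python 3.11.15, pandas 2.3.3 and matplotlib 3.10.9. On simulated data for AngII+VAL against AngII (12094 genes, 100 altered per step) 61% of the genes altered by 1 log2 unit and 91% of those altered by 2 were found, with 7 false calls. The altered genes had a mean log2(FPKM + 1) above 2, and the noise was normal and independent between genes. These rates therefore do not cover lower genes or variation that genes share within a library. Floors of 3 reads cover counting error only. No libraries shared values: of transcripts above 1 FPKM in either library of a pair, at most 0.00467% had identical values in any 2 libraries.

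The genes named in the text are the 12 per direction with the largest change among those past the threshold with a mean of at least 5 FPKM, the 12 with the smallest p and separate ranges in a direction with under 5 of these, 20 fixed genes, and the 2 members per direction with the smallest p in each list described; others are the remaining genes past the threshold, fixed cell type markers, and genes named after their values were seen. A few genes that the rule names are not reported here. The comparison, the 46 gene lists and most tests were chosen with earlier results of these data known. Alternatives tried were another pseudocount, other filters, transcripts of either list, all 30 libraries, quantile and median scaling, array weights, voom on recovered reads, score terms and each library left out.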

Additional observations from a re-analysis of the deposited data

Results flagged for a closer look

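In groups of 5 libraries, the highest or lowest library was set against the rest of its group for the scores of the lists described and the FPKM of genes with full values, 136 groups in all. A library stood apart in 9 of them by Dixon's ratio above 0.71, and chance alone flags about 1 in 20 groups. No cause was tested for any of them.

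The nitric oxide and cyclic GMP score of AngII replicate 4 was 2.635, below the 2.96 to 3.09 of the other AngII libraries. The mitochondrially encoded score of AngII+VAL replicate 1 was 11.77, above the 9.95 to 10.36 of the others. The sympathetic neuron score of AngII+VAL replicate 4 was 3.97, above the 0.47 to 1.30 of the others, and lay in the range of the 3 AngII libraries with high neuron genes. Nos3 in AngII+VAL replicate 4 was 2.33 FPKM, against 1.42 to 1.49 in the other AngII+VAL libraries. Cltrn in AngII+VAL replicate 1 was 5.00 FPKM, against 3.35 to 3.77 in the others.

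Among AngII libraries, Myh2 in replicate 1 was 0.273 FPKM, against 0 to 0.0685 in the others. Myot in replicate 3 was 1.24 FPKM, against 0 to 0.0345, and Tmod4 in replicate 2 was 0.985 FPKM, against 0 to 0.0425. Each of these 3 values lay below the lowest AngII+VAL library. Gm14287 in replicate 5 was 12.4 FPKM, against 8.45 to 9.22.

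Outside the comparison, 236 annotated genes had transcripts listed for AngII+VAL only, of which 63 had a mean of at least 1 FPKM and 7 of at least 5 FPKM. The highest was the immunoglobulin variable gene Ighv1-80, with 0.226, 68.8, 0, 0.149 and 4.21 FPKM in the AngII+VAL libraries, so that replicate 2 carried it. Igkv8-19 followed, with 0.321, 45.0, 0, 0.283 and 0.644 FPKM. Umod, uromodulin of the kidney, had 2.82, 1.84, 2.15, 2.29 and 2.32 FPKM, and was at a like level in all 5 libraries. Of other genes known from the tubule, Akr1c21 spanned 2.32 to 3.96 FPKM and Cyp2j5 1.36 to 3.13 FPKM. Ugt3a2 spanned 1.58 to 2.35 FPKM and Slc22a12 1.13 to 1.98 FPKM. Pdzk1 was less even, at 0 in replicate 2 and 0.66 to 0.92 FPKM in the other AngII+VAL libraries. Their AngII values are not in the lists used, so the difference was not tested.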

How the results depend on the processing

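Of the 24 genes that passed, the count was 24 or 25 with a pseudocount of 0.1, without a filter, under quantile normalization, median scaling and array weights. It was 15 with a filter of 5 FPKM, 38 with transcripts of either list, 14 with voom, 15 with the neuron score, 0 with all 30 libraries, 0 with the skeletal muscle score, 2 with the Kap level and 4 without the 4 libraries of high neuron score; the settings with Kap and without the 4 libraries were chosen after seeing the data. Leaving out each library gave 18 to 81, the highest without AngII replicate 2. Of the 24, 23 were called at a pseudocount of 0.1, 14 by voom and 24 with transcripts of either list. Fewer genes entered at 5 FPKM (7308). With transcripts of either list, those missing from a group's list were entered as 0 in each of its libraries. That entry can itself separate the groups. For the other settings the cause was not tested.

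The 366 genes with separate ranges were 193 at 5 FPKM and 2379 without the 4 libraries, which leaves fewer values to separate. Leaving out each library gave 434 to 780, with 761 without AngII+VAL replicate 5, and 575, 780 and 626 without AngII replicates 1, 2 and 4. No paired analysis was possible because the labels carry no replicate numbers, and those used here only name the libraries in accession order.

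Of 2108 values of 93 named genes under 23 alternatives, 1870 kept their direction and side of the threshold, 159 lost the threshold, 8 gained it, 69 changed sign and 2 came to 0 (Kap with the Kap level, mt-Co1 under quantile normalization). Sign changes, as log2 fold changes, were these. With the skeletal muscle score: Rpl31-ps9 0.062, Gucy1a1 0.12, Agtr1b 1.06, Agt 1.18, Agtr1a 1.30, Mylk 0.095, Acta2 -0.068, Ucp1 -1.09, Myl9 0.17, Myh11 0.029, Pparg 0.11, Eln -0.74, Ccl2 -1.26, Rpl3l -0.39, Myom3 -0.26, Nphs1 0.69, Atp6ap2 0.24, Des -0.15, Ppp1r12b -0.85, Col15a1 -0.92, Fbn1 -1.66, Dpep1 0.34, Fabp3 -1.43, Ebf2 0.54, Ndufs8 -0.19, Atp5f1 -0.62, mt-Nd2 0.37, Hand2 1.28, Tubb3 4.26, Prx 1.19, Nr1d1 -0.37. With the Kap level: Pparg 0.28, Eln -0.022, Ccl2 -0.49, Mrvi1 -0.086, mt-Nd1 0.096. With the neuron score: Eln -0.0023, Ccl2 -0.41, Fbn1 -0.15. With array weights: Pparg 0.028. After median scaling: Myl9 0.024, Myh11 0.099, Pparg 0.099. After quantile normalization: Acta2 -0.12, Pparg 0.049. Without the 4 libraries: Acta2 -0.0046, Eln -0.92, Ccl2 -1.09, Arap1 -0.39, Col15a1 -0.34, Fbn1 -1.30, Ebf2 0.12. Over the libraries left out in turn, Myh11 ranged from -0.12 to 0.019, Eln from -0.24 to 0.30, Ccl2 from -0.22 to 0.63, Fbn1 from -0.39 to 0.76, Pparg from -0.12 to 0.075 and Arap1 from -0.16 to 0.47. The cause was not tested. Depth was 74.3 M reads or more per library, and genes near the floor of 3 reads are limited by it.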

Other observations

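Skeletal muscle genes varied between libraries of every group in the series. Over the 17 genes of the list with transcripts listed for all groups, the mean log2(FPKM + 1) was 6.92, 5.89, 4.85, 6.11 and 5.57 in the AngII+VAL libraries. It was 5.86, 2.25, 1.37, 1.82 and 2.81 with ethoxysanguinarine, 3.38, 1.47, 6.27, 3.61 and 3.72 with baicalin and 3.48, 2.12, 3.99, 0.90 and 1.22 with gastrodin. It was 1.90, 2.44, 2.35, 0.89 and 0.79 in AngII and 5.51, 6.99, 1.13, 1.17 and 1.95 in Control. Libraries at the AngII+VAL level were therefore present in Control (replicates 1 and 2), with ethoxysanguinarine (replicate 1) and with baicalin (replicate 3), while the 5 AngII libraries were all low.

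The 5 kidney genes gave 3.46, 3.60, 3.34, 3.67 and 3.36 in AngII+VAL. They gave 2.01, 3.36, 2.08, 3.40 and 2.38 with ethoxysanguinarine, 2.25, 3.32, 2.02, 3.24 and 3.83 with baicalin and 3.27, 2.20, 3.30, 1.91 and 3.11 with gastrodin, and 3.16, 1.53, 3.70, 2.10 and 3.80 in AngII and 2.14, 2.54, 1.93, 2.70 and 2.41 in Control. Keg1, a kidney-expressed acyltransferase named after its values were seen, had 2.13 to 4.602 FPKM in AngII+VAL, against 0 to 1.32 FPKM in AngII.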
